A study of Mus musculus with 2 samples.

Results

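Ly6c2 monocytes are the blood-derived monocytes that a brain tumour recruits. The cells described here were picked by their own transcripts from 2 single-cell libraries of mouse brain carrying a GL261 glioma. The name is used for every cell picked, although many of these cells also held transcripts typical of tissue macrophages, as described below. A cell was included when it held at least 2 unique molecular identifiers (UMIs, each standing for 1 captured transcript) of Ly6c2, at least 1 of Ccr2 and at least 3 of Lyz2. It also had to hold fewer than 3 UMIs of Arg1, fewer than 5 of Mmp12, Adamdec1, H2-M2 and Ccl24 together, none of Flt3 or Cd209a, and at most 1 of Siglech, of Cd3e with Cd3d, and of Sox2 with Met. Of 9685 barcodes with at least 500 mouse genes and at most 10% mitochondrial UMIs, 243 met these conditions, 63 of 3110 in the library labelled wild type (WT-labelled) and 180 of 6575 in the library labelled knockout (KO-labelled). These counts chose the cells, so the levels of the genes named in the conditions are descriptions and not findings.

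GL261 is a glioma line of C57BL/6 mice, and it was implanted into hosts labelled C57BL/6 wild type or Cacna1h-/-. Cacna1h encodes Cav3.2, a T-type calcium channel, and the study asked, by its title, about such channels in the surroundings of the tumour. Brain tissue holding the tumour was taken on day 24, dissociated with a neural tissue kit and made into 1 10x Genomics 3' v3.1 library per genotype. The sources used here give neither the number, age nor sex of the animals in a library, and the -/- label names no Cre driver or cell type. With 1 library per label there is no replicate check and no test of the genotype, so values are set side by side. Intervals are exact 95% intervals for counting error only, and they cover neither the spread between cells nor that between animals.

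Ly6c2 monocytes leave the bone marrow by way of Ccr2, the receptor for the chemokine Ccl2, and carry Ly6c2, Plac8 and Chil3. In inflamed or tumour-bearing tissue they lose these transcripts, gain complement C1q, Apoe and MHC class II, and can become macrophages that make arginase (Arg1) or the inducible nitric oxide synthase (Nos2). Type I interferon switches on the Ifit, Oas and Rsad2 genes through the ISRE, a promoter element, and interferon gamma switches on the guanylate-binding proteins and the immunity-related GTPases.

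Cacna1h transcripts went against the labels, so groups are called by their labels throughout. Gated Arg1 cells, Mmp12 cells, microglia and T cells held 0 Cacna1h UMIs each in the WT-labelled library, and 14, 17, 8 and 45 in the KO-labelled one. The Ly6c2 monocytes held 0 Cacna1h UMIs in the WT-labelled library and 10 in the KO-labelled one, in 10 of 180 cells (5.52 CPM, UMIs of the gene divided by all mouse UMIs of the cells and multiplied by 1e6; interval 2.65 to 10.2). The exact upper limit for 0 UMIs in the WT-labelled cells is 6.12 CPM, so a difference of Cacna1h was not detectable between these cells at this depth. Transcripts outside a deleted part can remain in a knockout, and the reads' position in the gene was not analysed here. Cacna1g and Cacna1i, the other T-type channel genes, were at 0 UMIs in these cells in both libraries. The libraries also differed in sex: 53 of the 63 WT-labelled cells held Y-linked UMIs (Ddx3y, Uty, Eif2s3y, Kdm5d), 10 held neither kind and 0 held Xist. Of the 180 KO-labelled cells, 125 held Xist and no Y-linked UMI, 28 held Y-linked UMIs and no Xist, 1 held both and 26 neither. The KO-labelled library therefore held cells of both sexes, and sex and label cannot be told apart across all cells. The libraries shared 21 barcodes, of which 7 passed the filter in both and 1 was a Ly6c2 monocyte in both. The median depth was 8432 UMIs per Ly6c2 monocyte in WT-labelled cells and 9081 in KO-labelled cells, from 602971 and 1811358 UMIs in all. A doublet caller marked 0 of the 63 and 1 of the 180 cells, by unlike rules. In the WT-labelled library the highest scores up to the expected number were called, 77 barcodes (2.48%). In the KO-labelled one the automatic threshold was used, which called 164 barcodes (2.49%, with 5.26% expected).

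The type I interferon genes bear on the differences described below, and many but not all of their promoters held the letters of the ISRE. Of the 40 genes of the interferon list, 32 had a RefSeq promoter window (GRCm38.p6, 250 bases before to 50 after the start), and 17 of these (53.1%) held an ISRE with the letters GAAA, NN and GAAA in a row on either strand. Of all 27025 genes with a window, 1079 (3.99%) held it, and of all 32851 windows, since a gene can have several, 1131 (3.44%). Of the 40 windows of the listed genes, 20 held it. Of 10 list genes that were lower in the C1q-rich cells of both libraries, 7 had a window, and Ifit1, Ifit3, Oas3 and Rsad2 held the letters. The 200 bases before the start of these 4 genes are shown 5' to 3' on the gene's strand, with the ISRE in capitals. They lie at chr19:34640689-34640888 (plus strand), chr19:34583329-34583528 (plus), chr12:26456453-26456652 (minus) and chr5:120777660-120777859 (minus).
Ifit1: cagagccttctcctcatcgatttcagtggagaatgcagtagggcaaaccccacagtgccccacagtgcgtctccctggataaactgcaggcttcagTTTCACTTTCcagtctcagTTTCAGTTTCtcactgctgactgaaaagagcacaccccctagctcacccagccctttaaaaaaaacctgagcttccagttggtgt
Ifit3: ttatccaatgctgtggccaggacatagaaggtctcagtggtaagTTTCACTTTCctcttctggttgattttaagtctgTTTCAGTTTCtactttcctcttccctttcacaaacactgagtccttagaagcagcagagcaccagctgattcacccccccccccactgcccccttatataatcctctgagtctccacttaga
Rsad2: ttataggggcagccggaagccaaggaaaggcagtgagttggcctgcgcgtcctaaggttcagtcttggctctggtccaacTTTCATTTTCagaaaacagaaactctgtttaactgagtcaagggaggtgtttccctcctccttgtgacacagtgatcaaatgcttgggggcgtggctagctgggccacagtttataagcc
Oas3: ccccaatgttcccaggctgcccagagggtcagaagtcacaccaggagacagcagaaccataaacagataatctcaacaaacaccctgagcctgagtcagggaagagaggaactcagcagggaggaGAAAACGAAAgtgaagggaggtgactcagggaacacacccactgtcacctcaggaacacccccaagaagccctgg
Ifit1 and Ifit3 held 2 matches each and Rsad2 and Oas3 held 1 each. The last match ended 75, 112, 110 and 65 bases before the start of Ifit1, Ifit3, Rsad2 and Oas3. A match of letters is a description and no evidence of binding. For the other motifs searched, GAS (TTCNNNGAA) was held by 9.55% of all genes with a window (8.30% of windows). The kappaB letters GGGA, NTT and NCC in a row were held by 1.38% of genes (1.20% of windows). Of the 32 interferon genes, 4 (12.5%) held GAS and 0 held kappaB.

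Of the 5 marker genes, Ly6c2, Ccr2, Plac8 and Lyz2 were abundant and Nos2 was sparse. Plac8, a myeloid gene that the conditions did not use, was at 2309 CPM in WT-labelled cells and 2976 CPM in KO-labelled cells, in 58 of 63 and 170 of 180 cells. Lyz2, the lysozyme of myeloid cells, was at 7301 and 8099 CPM, Ly6c2 at 997 and 1377 CPM and Ccr2 at 451 and 508 CPM. Nos2 was at 18.2 CPM (9.11 to 32.6) and 33.1 CPM (25.3 to 42.6), from 11 UMIs in 4 cells and 60 UMIs in 21 cells. After thinning every cell to 3000 UMIs, which left out 1 and 3 shallower cells, 4.84% (1.01 to 13.5) and 3.39% (1.25 to 7.23) of them held a Nos2 UMI, against 6.35% and 11.7% unthinned. Gated T cells, taken as the background, held one in 0.174% and 0.0660% of cells after the same thinning, at median depths of 8211 and 9120.5 UMIs before it. The shares of Nos2 at 3000 UMIs went against its CPM, so no order of the libraries was read from them. After thinning to 2000 UMIs, 1.59% and 1.67% of the Ly6c2 monocytes held a Nos2 UMI. Arg1 cells held one in 4.44% and 7.27% and Mmp12 cells in 0.549% and 1.98%, so Nos2 was not particular to the Ly6c2 monocytes. Markers of other cells were present at low levels. The largest sums were those of the 8 border macrophage markers, at 310 and 252 CPM, and of the 8 plasmacytoid dendritic cell markers, at 259 and 296 CPM against 10295 and 10886 CPM in gated plasmacytoid cells. Of the border macrophage markers, Lyve1, Cd163 and Cbr2 were at 0 in both libraries, and F13a1 is also a gene of circulating monocytes. Of the plasmacytoid markers, Klk1, Ccr9, Ly6d and Pacsin1 were at 0 in WT-labelled cells and Pacsin1 in KO-labelled cells. The 10 T cell markers summed to 11.6 and 26.5 CPM, against 4883 and 4729 CPM in gated T cells, and the 10 neutrophil markers to 119 and 132 CPM with Ly6g and Retnlg at 0 in both libraries. The 8 microglia markers summed to 99.5 and 90.5 CPM, against 2428 and 2576 CPM in gated microglia, with Sall1 at 0 in both libraries.

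Some cells lay close to the Ly6c2 and Arg1 thresholds on either side, and whether the thresholds part separate groups was not tested. In the WT-labelled library 22 cells missed the set only through having 1 Ly6c2 UMI, and 11 cells entered with 2. Plac8 was at 759 CPM in the former and 1630 CPM in the latter. In the KO-labelled library 34 cells had 1 Ly6c2 UMI and 21 had 2, with Plac8 at 1685 and 1616 CPM. On the Arg1 side, 5 and 40 members held 1 or 2 Arg1 UMIs, and 3 and 12 cells were left out with 3 or 4. Cells were sparse around this threshold. In the KO-labelled library 140 cells held 0 Arg1 UMIs, 30 held 1, 10 held 2, 6 held 3 and 6 held 4. Plac8 was at 2609 CPM inside and 2267 CPM outside in WT-labelled cells, and at 2345 and 1898 CPM in KO-labelled cells. Other genes were less alike across this edge. Spp1 was at 393 and 1633 CPM in WT-labelled cells and at 65.4 and 50.8 CPM in KO-labelled cells. C1qa was at 2091 and 453 CPM and at 2056 and 2347 CPM, and Chil3 at 476 and 181 CPM and at 116 and 0 CPM. The Arg1 condition alone left out 10 of 73 WT-labelled cells (13.7%, 6.77 to 23.8) and 83 of 263 KO-labelled cells (31.6%, 26.0 to 37.6). The set is thus the Arg1-low part of the cells that met the other conditions, and a larger share of those cells was removed in the KO-labelled library. Whether any of the cells descend from others was not tested.

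Ly6c2 monocytes were 2.03% (1.56 to 2.58) of the filtered barcodes in the WT-labelled library and 2.74% (2.36 to 3.16) in the KO-labelled one, a ratio of 1.35 (1.01 to 1.83). Of the cells in 4 gated myeloid sets they were 11.03% (8.58 to 13.9) and 16.9% (14.7 to 19.3). The other sets were gated alike: Arg1 cells, with at least 3 Arg1 UMIs (45 and 220 cells), Mmp12 cells, with at least 5 UMIs of Mmp12, Adamdec1, H2-M2 and Ccl24 (364 and 253 cells), and microglia (99 and 411 cells). Shares of captured cells depend on how cells survived dissociation as well as on their number in the brain, and the 2 cannot be told apart. The filter passed 3110 of 7382 barcodes in the WT-labelled library and 6575 of 8369 in the KO-labelled one. Over all barcodes the median was 310.5 genes in the former and 2843 in the latter. How this difference bears on the shares was not tested.

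The Ly6c2 monocytes varied among themselves in complement C1q, which tissue macrophages make and blood monocytes lack. After thinning to 3000 UMIs, 27 of 62 WT-labelled cells (43.5%) and 76 of 177 KO-labelled cells (42.9%) held no UMI of C1qa, C1qb or C1qc. Another 9 and 26 cells held 1 to 5, and 26 (41.9%) and 75 (42.4%) held 6 or more. The set was therefore a mix of cells with and without C1q, and the name Ly6c2 monocytes covers both. The C1q-high cells were deeper, with median UMIs of 9921 against 7542 in WT-labelled cells and 11726 against 7966 in KO-labelled cells, and what depth contributes was not tested. Genes were counted as apart when the C1q-high and the C1q-zero cells differed at least 2-fold in CPM in the same direction in both libraries. By this rule 40 of 3439 genes (1.16%) were higher and 79 (2.30%) lower in the C1q-high cells. No significance test was run, since cells of 1 library are not replicates.

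MHC class II genes, which present antigen to T cells, were higher in the C1q-high cells. Of 7 measured list genes 5 passed the rule: H2-Aa, H2-Ab1, H2-Eb1, H2-DMb1 and Cd74, the invariant chain. H2-Aa was at 3679 CPM in the C1q-zero and 7631 CPM in the C1q-high cells of the WT-labelled library, and at 2938 and 7897 CPM in KO-labelled cells. The log2 ratios of H2-Aa were 1.05 (0.94 to 1.17) and 1.43 (1.35 to 1.5). Of 17 macrophage maturation genes, Apoe, Ms4a7 and Mertk passed as higher and 0 as lower. Apoe, which carries lipid, was at 3742 and 9861 CPM in WT-labelled cells and 3072 and 11147 CPM in KO-labelled cells. Mertk, a receptor for engulfing dead cells, was at 95.6 and 262 CPM in WT-labelled cells and 14.1 and 207 CPM in KO-labelled cells. Of 21 nitric oxide and inflammatory genes, Il1a and Slc7a2 were higher and Il18 and Il15 lower. Il1a, a cytokine of the interleukin 1 family, had log2 ratios of 1.30 in both libraries.

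Genes of circulating monocytes were lower in the C1q-high cells, 11 of 22 measured list genes by the 2-fold rule and 0 higher. They included Plac8, Chil3, Hp, F13a1, Samhd1, Mgst1, S100a4, S100a6, Ifitm6 and Clec4e. Plac8 was at 3204 CPM in C1q-zero and 813 CPM in C1q-high cells of the WT-labelled library, and at 4443.5 and 1470 CPM in KO-labelled cells. F13a1, the A chain of coagulation factor XIII, was at 307 and 18.7 CPM and at 221 and 18.5 CPM. Chil3 was at 1000.3 and 135 CPM in WT-labelled cells and at 422 and 31.6 CPM in KO-labelled cells. The 9 cells of the middle band in WT-labelled cells are few, and Plac8 was not between the outer bands there, at 4446 CPM.

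The type I interferon list went with the monocyte genes, with 10 of 37 measured genes lower in the C1q-high cells and 0 higher. They were Isg20, Ifit1, Ifit2, Ifit3, Rsad2, Oas2, Oas3, Ifi204, Herc6 and Parp14. The median log2 ratio of the list was -0.85 in WT-labelled cells and -1.08 in KO-labelled cells. Rsad2, which encodes the antiviral protein viperin, was at 343 CPM in C1q-zero and 74.96 CPM in C1q-high cells of the WT-labelled library, and at 759 and 203 CPM in KO-labelled cells. Ifit3, an antiviral gene with 2 ISRE matches in the sequence above, was at 259 and 78.7 CPM and at 480 and 182 CPM. Oas3, a sensor of double-stranded RNA, was at 116 and 37.5 CPM and at 160 and 74.2 CPM. None of 12 interferon gamma induced GTPases passed in either direction in both libraries. Of 11 chemokines, Ccl2, Ccl6, Ccl9 and Cxcl10 were lower in the C1q-high cells, and Ccl5 was not among them, with log2 ratios of -0.70 and 0.17.

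**Figure D1:**
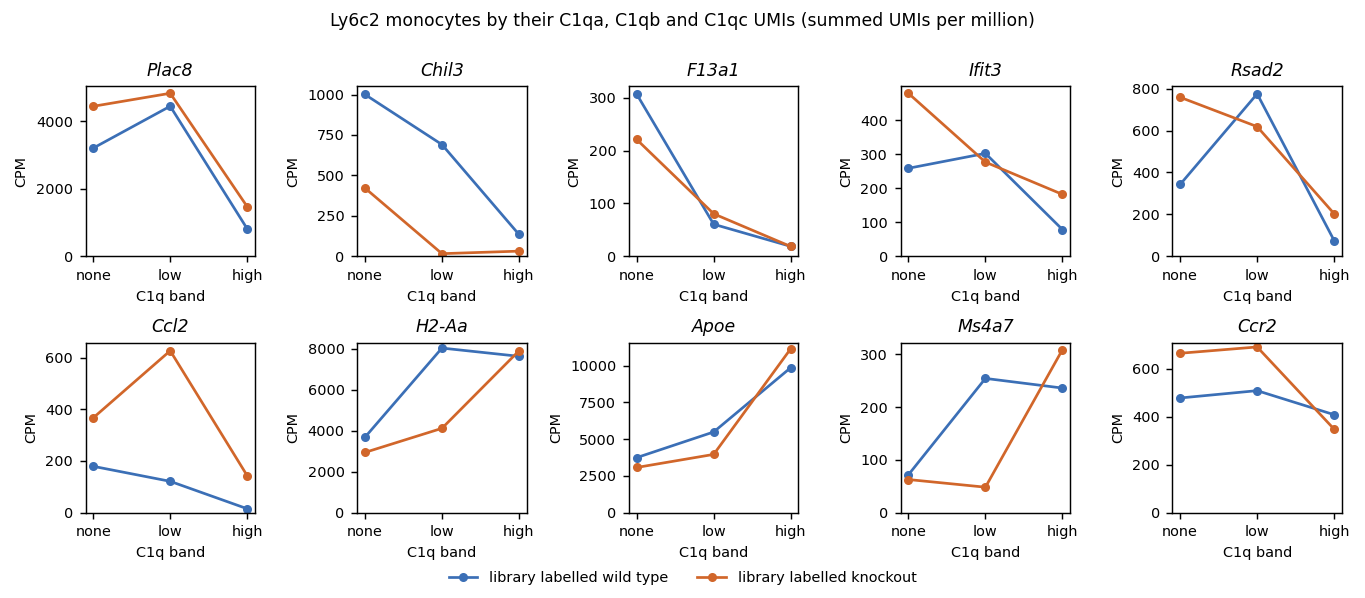
Levels of 10 genes (y axes, CPM on linear scales) in Ly6c2 monocytes holding 0, 1 to 5 and 6 or more C1q UMIs after thinning to 3000 UMIs, with 1 line per library. Plac8, Chil3, F13a1, Ifit3, Rsad2 and Ccl2 end lower and H2-Aa, Apoe and Ms4a7 end higher in the C1q-high band in both libraries; the middle band in WT-labelled cells holds 9 cells.

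Compared with the other gated myeloid sets, Ly6c2 monocytes stood apart by the same groups of genes, given here as a description because the conditions used the same cells' counts. A gene was counted when it was at least 2-fold apart in the same direction in both libraries. Against the Arg1 cells, 0.811% of 6411 genes were higher and 0.842% lower. Of 23 classical monocyte genes 7 were higher and 0 lower, and of 39 type I interferon genes 10 were higher and 0 lower. Of 26 macrophage maturation genes 0 were higher and 9 lower. Ifitm6, a gene of circulating monocytes and neutrophils, was 15.5-fold and 15.05-fold higher in the monocytes than in the Arg1 cells of the WT-labelled and the KO-labelled library. Chil3, a chitinase-like protein, was 11.8-fold and 6.44-fold higher. Spp1, the secreted glycoprotein osteopontin, was 4.99-fold and 5.32-fold lower, and Mrc1, the mannose receptor, 5.58-fold and 4.86-fold lower. MHC class II did not separate the sets, with 0 of 9 genes counted in either direction. Arg1 cells held more C1qa than the monocytes, at 3594 and 4098 CPM against 1644 and 1879 CPM.

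The Mmp12 cells were farther away. Against them 3.03% of 8901 genes were higher and 4.95% lower in the Ly6c2 monocytes, with 20 of 23 monocyte genes and 24 of 39 type I interferon genes higher and 0 of either list lower. Plac8 was 22.2-fold and 43.8-fold higher, and S100a4, a calcium-binding protein, 22.1-fold and 44.0-fold higher. Cell cycle genes were lower in the monocytes: 15 of 22 S phase genes and 21 of 24 genes of G2 and mitosis, with 0 higher. Birc5 (survivin) was at 3.32 and 1.66 CPM in the monocytes, from 2 and 3 UMIs, and at 56.8 and 26.7 CPM in the Mmp12 cells. Against microglia, 5.0% of 8402 genes were higher and 13.2% lower. There 19 of 23 monocyte genes and 21 of 39 type I interferon genes were higher, and 15 of 27 macrophage maturation genes and 15 of 17 genes of G2 and mitosis were lower. The Mmp12 cells were deeper than the monocytes, with medians of 18843 and 24944 UMIs.

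**Figure D2:**
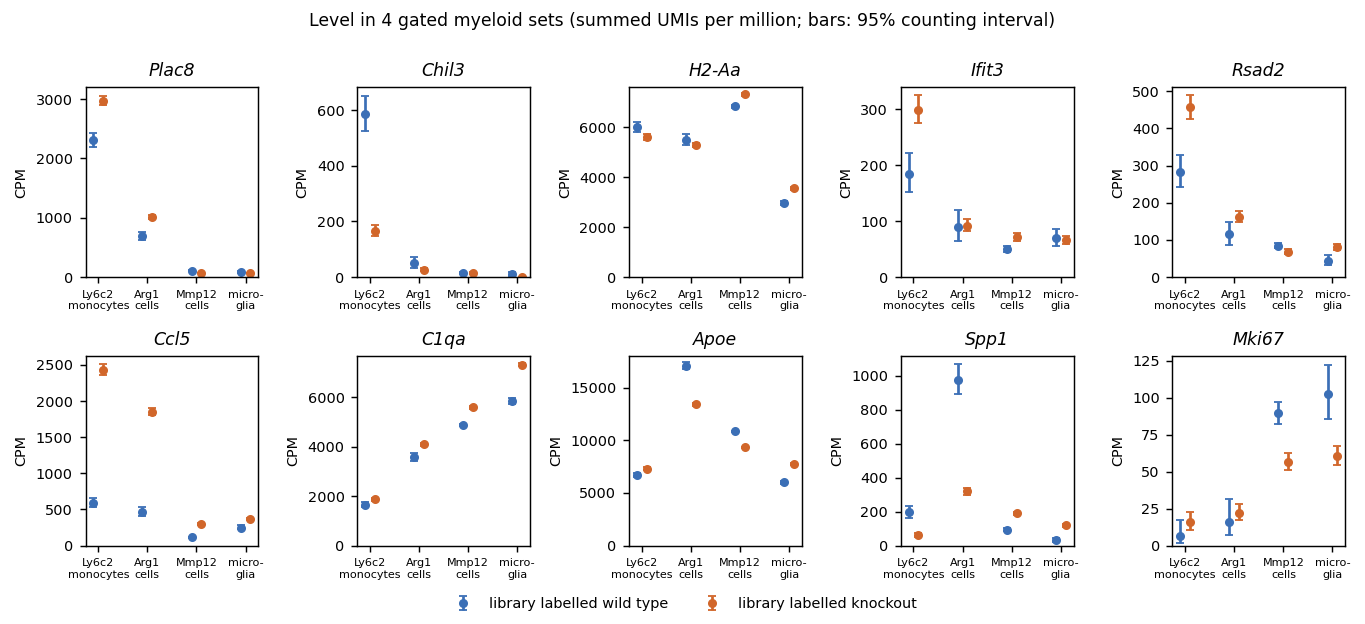
Levels of 10 genes (y axes, CPM on linear scales from 0) in the 4 gated myeloid sets, with points for each library and bars for 95% counting intervals. Plac8, Chil3, Ifit3 and Rsad2 are highest in the Ly6c2 monocytes and C1qa lowest there in both libraries, and Mki67 is low in Ly6c2 monocytes and Arg1 cells.

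Between the labels, the Ly6c2 monocytes of the KO-labelled library held more of 3 inflammatory chemokines, of glycolytic genes and of several inflammatory genes, and fewer Chil3, Cxcl2 and Cd80 transcripts. Genes with at least 100 UMIs over both libraries were compared, 3832 in all, with a median log2 ratio of -0.02. Of these, 8.01% were higher and 8.09% lower in KO-labelled cells by 1.5-fold or more. By 2-fold or more, 1.46% (56 genes) were higher and 1.88% (72 genes) lower. Being past a fold is not a test. One WT-labelled cell of 47568 UMIs, against 18493 for the next, gave 7.89% of that library's monocyte UMIs. Without it 28 genes were at least 2-fold lower. Each list was also counted in the Y-linked cells without Xist, 53 and 28, and with the conditions applied after thinning to 5000 UMIs. These counts stand beside each list described. The Y-linked cells had median depths of 8432 UMIs in the WT-labelled and 11457.5 UMIs in the KO-labelled library. The Xist cells of the latter had 8721 UMIs, and what depth contributes was not tested.

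Of 11 measured chemokines, 4 were past 1.5-fold as higher and 3 as lower in KO-labelled cells. Ccl5, which attracts T cells and NK cells, was at 594 CPM (534 to 659) in WT-labelled cells and 2437 CPM (2365 to 2510) in KO-labelled cells, a 4.10-fold difference (3.68 to 4.58). It was detected in 50.8% and 80.0% of the cells. After thinning to 3000 UMIs the shares were 40.3% (28.1 to 53.6) and 69.5% (62.1 to 76.2). Ccl12 was at 46.4 and 177 CPM and Ccl2 at 97.8 and 288 CPM, both ligands of Ccr2. The difference of Ccl2 lay in the Xist cells: Y-linked cells were at 81.3 CPM (58.9 to 110) in WT-labelled cells and 81.0 CPM (54.2 to 116) in KO-labelled cells, and the Xist cells of the latter at 337 CPM (305 to 372). Ccl5 was at 503, 1472 and 2258 CPM in the same 3 groups. Cxcl2, which attracts neutrophils, was lower in KO-labelled cells, at 501 and 290 CPM. The difference was larger between the Y-linked cells, at 530 and 83.8 CPM, and the Xist cells were at 380 CPM. Ccl3, Ccl4 and Cxcl2 were the 3 lower chemokines. Among the Y-linked cells 2 of 9 measured chemokines were at least 1.5-fold higher and 2 lower, and after thinning 3 of 11 were higher and 1 lower.

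Ccl5 is also a product of T cells and NK cells, and their markers differed between the libraries' monocytes. The 10 NK markers summed to 28.2 CPM in WT-labelled cells, with 5 of them at 0 (Ncr1, Prf1, Klra8, Eomes and Xcl1), and to 97.2 CPM in KO-labelled cells with none at 0. In gated NK cells they summed to 18994 and 15350 CPM. In the cells without any T or NK marker UMI, 41 and 102, Ccl5 was at 847 CPM (751 to 952) and 2440 CPM (2344 to 2540), a 2.88-fold difference (2.54 to 3.27). Ccl5 was at 1794 and 3882 CPM in gated NK cells, at 865 and 2081 CPM in gated dendritic cells, and at 470 and 1849.5 CPM in Arg1 cells. Gated T cells held it at 2011 and 2177 CPM, and 54.3% and 45.8% of them had a Ccl5 UMI after thinning to 3000 UMIs (62.0% and 58.6% unthinned). The higher level in the KO-labelled library was thus shared by Arg1, NK and dendritic cells, while in T cells the levels were close and the share with a UMI was lower. It was not confined to these sets. After thinning to 2000 UMIs, shares with a Ccl5 UMI were 11.5% and 26.1% in Mmp12 cells and 15.5% and 22.4% in microglia. In gated tumour cells, taken as a background for RNA that is free in the cell suspension, they were 2.76% and 6.07%. The part of such free RNA in the Ccl5 levels was not tested.

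Genes of glycolysis and hypoxia were higher in KO-labelled cells in 9 of 19 measured list genes and lower in 0 at 1.5-fold, with a median log2 ratio of 0.55. Tpi1, triose phosphate isomerase, was at 186 CPM (153 to 224) and 452 CPM (422 to 484) and was detected in 58.7% and 83.3% of cells. Pfkl, a phosphofructokinase, was at 33.2 and 88.3 CPM, Mif, a cytokine induced in low oxygen, at 240.5 and 480.3 CPM, and Aldoa, an aldolase, at 375 and 575 CPM. Gapdh and Pkm, the list's most abundant enzymes, were alike within 1.5-fold, at 1469 and 1567 CPM and at 571 and 625.5 CPM. Vegfa, the vessel growth factor that low oxygen induces, was at 86.2 and 223 CPM, and in the Y-linked cells at 83.2 and 140 CPM. Restricted to the Y-linked cells, 5 of 13 measured list genes were higher and 0 lower, and after thinning 12 of 18 were higher and 0 lower. Tpi1 was at 180 CPM in the Y-linked cells of the WT-labelled library. In the KO-labelled one it was at 304 CPM in the Y-linked and 478 CPM in the Xist cells.

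Among nitric oxide and inflammatory genes, 8 of 21 measured were at least 1.5-fold higher and 1, Cd80, was lower in KO-labelled cells. Acod1, which makes itaconate in activated macrophages, was at 149 CPM (120 to 183) and 416 CPM (387 to 446), and in the Y-linked cells at 163 and 260 CPM. Hif1a, the oxygen-sensing transcription factor, was at 342 and 627 CPM. Its Y-linked cells were at 344 and 388 CPM, within 1.5-fold, and the Xist cells at 703 CPM. Il1b, the most abundant gene of the list, was at 4259 and 3580 CPM. Cd80, a ligand that costimulates T cells, was at 358 CPM (312 to 409) and 200 CPM (180 to 222). In the Y-linked cells 3 of 15 measured genes were higher and 2 lower. With the conditions after thinning 4 of 21 were higher and 2 lower.

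Of 13 interferon gamma induced GTPases 6 were at least 1.5-fold higher in KO-labelled cells and 0 lower. Igtp, an immunity-related GTPase, was at 58.0 and 112 CPM and Gbp2, a guanylate-binding protein, at 347 and 582 CPM. Restricted to the Y-linked cells, 0 of 4 measured GTPases passed, and with the conditions after thinning 1 of 11. Of 38 type I interferon genes 10 were higher and 1 lower. Slfn4 was at 114 and 229 CPM (with a log2 ratio of 0.32 in the Y-linked cells) and Parp14 at 252 and 411 CPM, while Isg15, the most abundant, was at 1285 and 1440 CPM. Without the deepest WT-labelled cell 5 were higher and 2 lower. In the Y-linked cells 0 of 27 were higher, and with the conditions after thinning 1 of 36 was higher and 3 were lower.

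Of 23 monocyte genes 3 were at least 1.5-fold higher and 4 lower in KO-labelled cells. Restricted to the Y-linked cells, 0 of 20 were higher and 5 lower, with a median log2 ratio of -0.22 against 0.08 over all cells, and after thinning 2 of 23 were higher and 3 lower. Chil3 was at 587 CPM (528 to 652) in the WT-labelled library and 167 CPM (148 to 187) in the KO-labelled library. After thinning it was detected in 41.9% and 17.5% of the cells, against 0.174% and 0.132% of T cells. In the Y-linked cells Chil3 was at 620 and 41.9 CPM. Vcan, a proteoglycan, was also lower, at 66.3 and 37.5 CPM, and in the Y-linked cells at 71.9 and 11.2 CPM. Thbs1, the secreted protein thrombospondin 1, was higher, at 158 and 373 CPM. Thbs1 had the opposite direction in the Y-linked cells, at 157 and 78.2 CPM, and was at 508 CPM in the Xist cells. Ifitm3, an interferon-induced membrane protein, was at 2751 and 4368 CPM.

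Macrophage maturation genes passed in 4 of 21 cases as lower and 0 as higher, and after thinning in 3 of 20 as lower. This was not so in the Y-linked cells, where 3 of 19 were higher and 3 lower, with a median log2 ratio of -0.01 against -0.22 over all cells. Spp1 was at 196 and 60.2 CPM and was detected in 8 of 63 and 26 of 180 cells, and 41.5% of its WT-labelled UMIs were in 1 cell. Without the top cell of each library the log2 ratio of Spp1 was -1.34, against -1.70, and in the Y-linked cells it was -0.67. Cd63, a lysosomal membrane protein, was at 413 and 156 CPM, with 39.0% of the WT-labelled UMIs in the deepest cell, and without that cell its log2 ratio moved from -1.40 to -0.81. The ratio of Cd63 was -0.71 in the Y-linked cells. Gpnmb rested on that cell too, which held 82.1% of its UMIs, and without it the log2 ratio was 0.81. C1qa, at 1644 and 1879 CPM, and Apoe, at 6677 and 7306 CPM, were within 1.5-fold. Of 7 MHC class II genes 0 were past 1.5-fold, and H2-Aa was at 6007 and 5608 CPM. Lipid efflux genes were higher for Abca1, a cholesterol exporter, at 111 CPM (86.1 to 141) and 283 CPM (259 to 309), and in the Y-linked cells at 98.4 and 251 CPM. Nr1h3, which encodes the sterol receptor LXR alpha, was at 18.2 and 50.2 CPM, and in the Y-linked cells at 20.8 and 19.5 CPM.

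The remaining lists had at most 4 genes past 1.5-fold in either direction. Over all measured genes 8.01% were higher and 8.09% lower, and several of these lists, most of them short, were above those shares. Of 17 MHC class I presentation genes 1 was higher and 0 lower, of 22 receptors for chemokines and growth factors 1 and 0, of 16 Fc receptor and complement genes 3 and 1, and of 14 pattern recognition genes 1 and 2. Of 12 genes of alternative activation 2 were higher and 2 lower, and of 7 non-classical monocyte genes 1 and 0. Of 11 lipid handling genes 3 were higher and 1 lower, of 3 sterol synthesis genes 0 and 1, and of 6 iron and heme genes 0 and 1. Of 32 oxidative phosphorylation genes 2 were higher and 4 lower, of 27 immediate early and heat shock genes 0 and 4, and of 19 cathepsin and lysosome genes 0 and 0. Of 3 S phase genes 0 were past the fold, and no gene of G2 and mitosis or of the T-type channels reached 100 UMIs. In the Y-linked cells or after thinning each of these counts moved by at most 3 genes. The 4 lower immediate early and heat shock genes became 1 in either case and 0 without the deepest WT-labelled cell. The medians of the lists that led the account were 0.34 for chemokines, 0.34 for inflammatory genes, 0.55 for GTPases, 0.36 for type I interferon genes, 0.08 for monocyte genes and -0.22 for macrophage maturation.

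**Figure D3:**
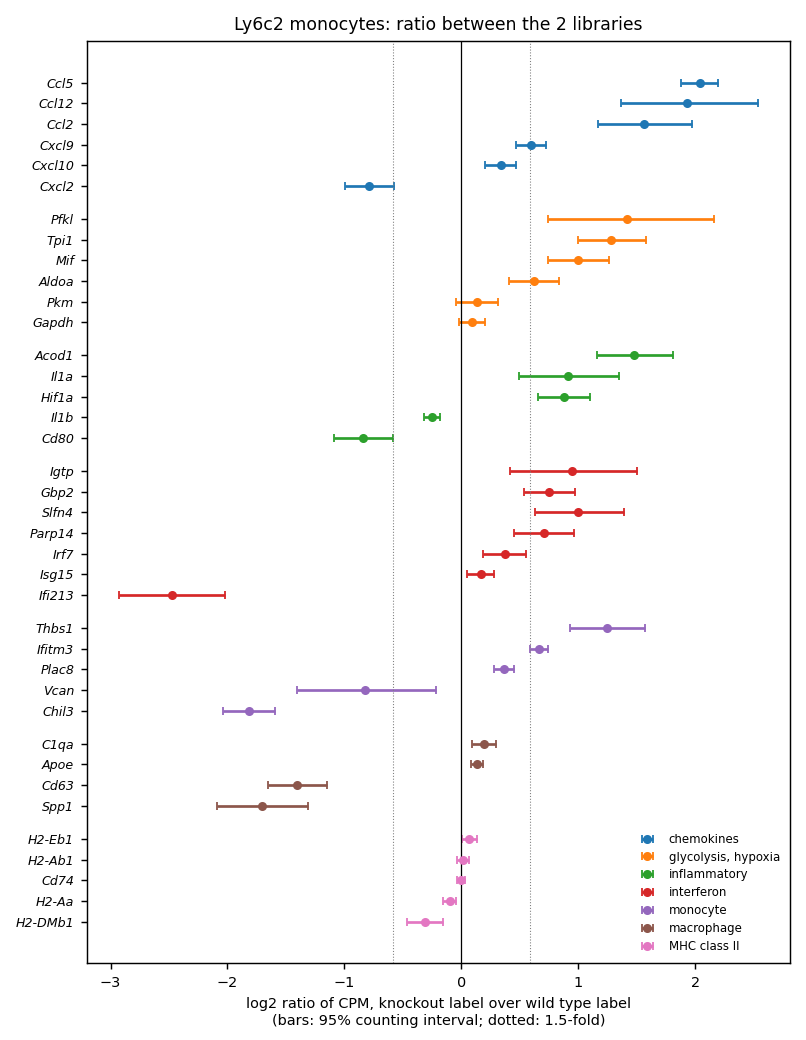
Log2 ratio of CPM in Ly6c2 monocytes, knockout label over wild type label (x axis), for 38 named genes grouped by list, with 95% counting intervals and dotted lines at 1.5-fold. Ccl5, Ccl12 and Ccl2 lie farthest to the right, Ifi213, Chil3 and Spp1 farthest to the left, and the MHC class II genes lie near 0.

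Several of the most unequal genes lay on chromosome 1. Ifi202b (chr1:173962568-173982744, minus strand), an interferon-inducible gene of the Ifi200 family of DNA-binding proteins, was at 0 UMIs in WT-labelled cells and at 439 UMIs (242 CPM, 220 to 266) in 136 of 180 KO-labelled cells. Set against a floor of 3 UMIs in the WT-labelled library, it was at least 48.7-fold higher. It was at 0 UMIs in all 10 gated sets of the WT-labelled library, while in the KO-labelled one Arg1 cells, Mmp12 cells and microglia held 178, 162 and 162 CPM. Ifi214, of the same family (chr1:173519717-173535957), was at 9.95 and 56.3 CPM. Ifi213 (chr1:173566283-173599274) was at 199 CPM (165 to 238) and 35.9 CPM (27.7 to 45.7), Ifi206 (chr1:173468485-173491041) at 144 and 28.2 CPM, and Ifi205 (chr1:174011998-174031810) at 146 and 45.3 CPM. F11r (chr1:171437535-171464603), which encodes a junctional adhesion molecule, was at 148 and 46.9 CPM. These are mm10 positions of whole genes. Members of this family resemble each other in sequence, so reads could be assigned to the wrong member, and the sources used here do not say how such reads were counted.

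Within the KO-labelled library these genes were at other levels in the cells with Xist than in those with Y-linked UMIs. Ifi213 had 2 UMIs in the 125 Xist cells (1.67 CPM, 0.203 to 6.04) and 43 in the 28 Y-linked cells (120 CPM, 86.9 to 162), against 191 CPM (156 to 232) in the Y-linked cells of the WT-labelled library. Ifi202b was at 282 CPM in the Xist cells, 148 CPM in the Y-linked cells and 0 in the WT-labelled library. F11r was at 33.4 CPM in the Xist cells, 78.2 CPM in the Y-linked cells and 149 CPM in the Y-linked cells of the WT-labelled library. The Y-linked cells of the KO-labelled library thus lay between its Xist cells and the WT-labelled library for all 3 genes. The labels name no strain for the knockout beyond its genotype, and genetic background was not tested.

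**Figure D4:**
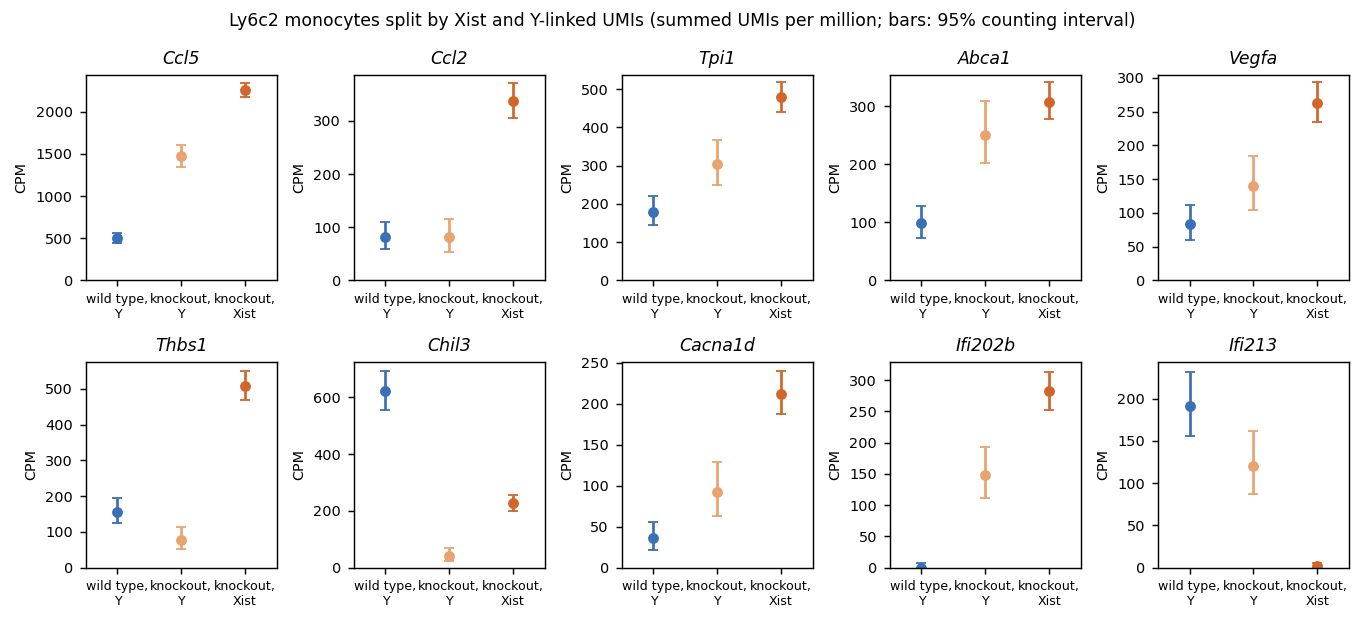
Levels of 10 genes (y axes, CPM on linear scales from 0, with 95% counting intervals) in Ly6c2 monocytes with Y-linked UMIs in WT-labelled cells (53 cells), with Y-linked UMIs in KO-labelled cells (28) and with Xist in KO-labelled cells (125). Ccl5, Tpi1 and Abca1 are higher in both KO-labelled groups, Ccl2 and Thbs1 in the Xist cells alone, and Ifi213 is close to 0 in the Xist cells.

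Cacna1d, which encodes the L-type calcium channel Cav1.3, was at 31.5 CPM (19.0 to 49.2) in WT-labelled cells and 163 CPM (145 to 183) in KO-labelled cells, a 5.19-fold difference (3.26 to 8.74). It was detected in 10 of 63 and 59 of 180 cells. In the Y-linked cells it was at 35.9 CPM (21.6 to 56.1) and 92.2 CPM (63.4 to 129), and in the Xist cells at 212 CPM. Arg1 cells held it at 145 and 192 CPM and microglia at 157 and 150 CPM, so that the WT-labelled Ly6c2 monocytes and the Mmp12 cells, at 37.7 and 33.8 CPM, were the low sets. The other genes among the 12 highest included Ldlrad4, an inhibitor of TGF-beta signalling, at 121 and 358 CPM. Several of the 12 lowest rested on the 1 deep WT-labelled cell. It held 93.1% of the Timp1 UMIs, 80.7% of those of Ciapin1 and 61.9% of those of Nol12. Without it the log2 ratio of Timp1 moved from -3.75 to -0.02 that of Ciapin1 from -2.26 to -0.01 and that of Nol12 from -1.84 to -0.56. Chil3, Ifi213, Ifi206, Ifi205, F11r and Dnajb9, a chaperone of the endoplasmic reticulum, were also among the 12 lowest, with at most 18.9% of their WT-labelled UMIs in 1 cell.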

How the data were processed

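UMI counts per mouse gene and barcode were deposited as 10x matrices, made with Cell Ranger 7.1.0 per the submitters' processing notes, which also name Seurat 5.0.2 with no role and the build mm10. The reference listed 32285 mouse and 36601 human genes, and mouse genes were used. Here counts were summed over the cells of a set and scaled to CPM. Genes with at least 100 UMIs were compared as ratios, with exact 95% Poisson, binomial or conditional intervals (Python 3.11.15, scipy 1.17.1), and the ratio code was tested on simulated data. A gene at 0 was set to a floor of 3 counts. Doublets were called with Scrublet (scanpy 1.11.5). Thinning used seed 1. Promoters were RefSeq windows of GRCm38.p6. The members, the 23 gene lists and the comparison gates were chosen with earlier results of these data known. Named between the labels are the markers, T-type channel genes, each list's 4 largest ratios and 3 most abundant genes, and the 12 highest and 12 lowest genes with at least 50 CPM after a screen against RNA of other cells. Named against other sets are up to 6 list genes a direction. Genes given within the C1q bands and by Xist and Y-linked UMIs were chosen after their values were seen. Some named genes are not reported here.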

Additional observations from a re-analysis of the deposited data

Results flagged for a closer look

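The reference also held human genes, which no comparison used. Ly6c2 monocytes held 85 UMIs of human genes in WT-labelled cells (0.0141% of their UMIs) and 245 in KO-labelled cells (0.0135%), in mouse tissue with a mouse tumour. Over all barcodes passing the filter the shares were 0.0146% and 0.0191%.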

How the results depend on the processing

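No paired analysis was possible because each label has 1 library and the result comes from no test. Removing called doublets, stricter gene or mitochondrial filters, CPM without mitochondrial, ribosomal and Malat1 UMIs and a median ratio set to 0 moved 1 of 142 named ratios each and reversed 0. More moved in Y-linked cells (77, with 5 reversed), with the conditions after thinning (63 and 9), without the deepest 10% (38 and 4) and by mean per-cell CPM (30 and 1). Some alternatives were chosen after seeing the data: leaving out the deepest 10% of cells, the deepest WT-labelled cell, or each gene's top cell in each library. The number of genes at least 2-fold higher moved from 56 to 20 in Y-linked cells, 293 at 25 UMIs, 20 at 400 UMIs and 99 without each top cell. The number at least 2-fold lower moved from 72 to 27 with the conditions after thinning, 43 in Y-linked cells, 26 without the deepest 10%, 28 without the deepest WT-labelled cell, 46 by mean per-cell CPM, 336 at 25 UMIs, 8 at 400 UMIs and 25 without each top cell.

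The lists described moved as follows at 1.5-fold. Chemokines went from 4 higher to 2 in Y-linked cells and from 3 lower to 1 after thinning, monocyte genes from 3 higher to 0 and macrophage maturation from 0 higher to 3 in Y-linked cells, and glycolysis and hypoxia from 9 to 5 there. GTPases went from 6 of 13 measured to 1 of 11 after thinning, 0 of 4 in Y-linked cells and 1 of 4 at 400 UMIs. Type I interferon genes went from 10 to 1 after thinning, 0 in Y-linked cells and 5 without the deepest WT-labelled cell. Inflammatory genes went from 8 to 4 after thinning, 3 in Y-linked cells, 4 by mean per-cell CPM and 5 at 400 UMIs. Lower macrophage maturation genes went from 4 to 7 without the deepest 10%, 1 at 400 UMIs and 2 without each top cell. Fewer genes were measured in the smaller sets and at 400 UMIs; otherwise the cause was not tested.

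Log2 ratios that changed sign in Y-linked cells were -1.01 for Thbs1, -0.44 for Il1a, -0.0061 for Ccl2, -0.50 for Gbp4 and -0.090 for Nr1h3. After thinning they were 0.96 for Gpnmb, 0.55 for Hmox1, -0.015 for Tapbpl, -0.081 for Abcg1, 0.18 for Dnajb1, 0.013 for Atp5g3, 0.62 for Timp1, 0.40 for Ciapin1 and 0.049 for Arl1. Without the deepest 10% they were 0.56 for Gpnmb, 0.021 for Hmox1, 0.023 for Timp1 and 0.043 for Ciapin1. Gpnmb was at 0.81 without the deepest WT-labelled cell, 0.084 by mean per-cell CPM and 0.45 without its top cells, and Ciapin1 at 0.026 without its top cells. With 1 library per label, depth limits only the counting error, and the spread between animals is unknown.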
